A study of Mus musculus with 6 samples.

Results

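Genes that make more than one transcript were searched for a switch of the leading one between control and Nkx2-2 mutant mouse duodenum. A gene was taken where it had 2 or more isoforms of over 400 bases and a summed level of at least 1 FPKM (fragments per kilobase of transcript and 1 M fragments sequenced) in all 6 libraries. The isoform of highest FPKM had to be the same in all 3 controls, and a different single one had to be highest in all 3 mutants. Ush1c and Nkx2-2 were left out by the rule. The genes were thus chosen by isoform FPKM in the same libraries that are described here. Of 23235 gene names, 4159 had 2 or more isoforms of that length and 2760 also reached the level. The rule found 6 of the 2760, namely Itgam, Tnfaip3, Itpr2, Pex16, Osbpl3 and Gm14308. For 5 of them the isoforms compared are transcripts of 1 gene, as the label says. The word switched holds for the order of FPKM, and the order by fragments did not switch in Pex16. The rows of Gm14308 were copies of 1 accession at separate loci and not transcripts of 1 gene, so the label did not hold for it.

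RNA of whole duodenum, taken as the first 2 cm below the stomach, was sequenced from mice of mixed background at 6 weeks of age. The 3 controls were Nkx2.2flox/+ and carried no Cre. The 3 mutants were Nkx2.2flox/flox; Villin-Cre/+, and mutant 3 also carried Rosa26Tomato/+. Both groups therefore carried a floxed allele, and the presence of Cre and the loss of Nkx2-2 cannot be told apart. Villin drives Cre in the gut epithelium, so the muscle, nerve, immune and pancreatic cells in the sampled tissue are not its target. The labels do not say that each sample was a separate animal, and p-values then measure only the spread between these samples. Depth lay between 21.0 and 26.3 M fragments per library. All 3 controls and mutant 1 expressed Y-linked genes (Ddx3y at 11.4 to 13.8 FPKM), whereas mutants 2 and 3 expressed Xist (19.7 and 22.5 FPKM), so sex differed within the mutants. All 10 markers of enterocytes and duodenum lay at 1 FPKM or more in every library. For Nkx2-2 itself, controls 1 to 3 had a total of 1.13, 1.32 and 0.779 FPKM and mutants 1 to 3 one of 1.10, 0.736 and 0.221 FPKM, and the groups overlapped.

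A gene can yield several transcripts by starting at different promoters, by including or skipping an exon, or by joining an exon at one of several neighbouring splice sites. Such choices can alter the protein, alter only the untranslated leader, or give a transcript with no reading frame. Short-read sequencing sees them only through fragments that cover bases or junctions found in one isoform, and Cufflinks divides all other fragments between isoforms by likelihood. In the duodenum, epithelial cells and immune cells of the mucosa both contribute to the totals, and fewer cells of a type and less RNA per cell cannot be told apart in such bulk samples.

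The 5 genes differed in how many bases set their isoforms apart, and coordinates here are those of the mm9 genome. In Itgam the isoforms share both ends and 30 exons and differ by 3 coding bases at the start of 1 exon (chromosome 7, 135245148 to 135245150). Reading frames of 3459 and 3462 bases follow from them. In Itpr2 the isoforms differ by 1 coding exon of 99 bases (chromosome 6, 146366940 to 146367038), which gives 57 exons and a reading frame of 8103 bases with it, and 56 exons and 8004 bases without it. Osbpl3 isoforms differ both in their start and in a coding exon of 108 bases (chromosome 6, 50283185 to 50283292). The stretches that only 1 isoform carries are shown in capitals within the genome sequence around them, read 5′ to 3′ on the gene's strand, since they are the only bases of the Itgam and Itpr2 transcripts that tell the isoforms apart.
Itgam, chr7:135245108-135245190, + strand, CAG kept in NM_001082960: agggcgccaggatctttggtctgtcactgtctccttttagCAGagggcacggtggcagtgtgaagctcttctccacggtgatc
Itpr2, chr6:146366925-146367053, − strand, exon kept in NM_019923: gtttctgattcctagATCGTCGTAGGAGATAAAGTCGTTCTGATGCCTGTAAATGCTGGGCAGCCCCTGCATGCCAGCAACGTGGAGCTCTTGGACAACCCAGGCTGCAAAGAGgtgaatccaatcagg
Osbpl3, chr6:50283170-50283307, − strand, exon kept in NM_027881: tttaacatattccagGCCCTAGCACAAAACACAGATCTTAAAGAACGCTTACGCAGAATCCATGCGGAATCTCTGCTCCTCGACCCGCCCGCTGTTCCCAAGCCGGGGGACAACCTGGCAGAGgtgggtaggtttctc
In the Itgam line the CAG in capitals follows directly on the TAG that ends the intron in NM_001082960. The letters thus hold a pair of AG acceptors next to each other, and NM_008401 is joined at the second of them. The Itpr2 and Osbpl3 exons are each preceded by AG and followed by GT, the usual ends of introns.

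Tnfaip3, Pex16 and Osbpl3 isoforms begin at different start sites. Of the Tnfaip3 isoforms, NM_009397 starts at 18735216 and NM_001166402 at 18731769 on the − strand of chromosome 10, inside the first intron of the other. They have 258 and 173 bases of their own, 4163 bases in common and the same reading frame of 2325 bases. Of the Pex16 isoforms, NM_145122 starts at 92215396 and NR_028114 at 92214833 on the + strand of chromosome 2. They have 437 and 146 bases of their own and 1025 in common. NM_145122 has a reading frame of 1008 bases, while NR_028114 is listed as non-coding. Of the Osbpl3 isoforms, NM_001163645 starts at 50406169 and NM_027881 at 50332836 on the − strand of chromosome 6, and their reading frames are 2457 and 2565 bases long.

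**Figure D1:**
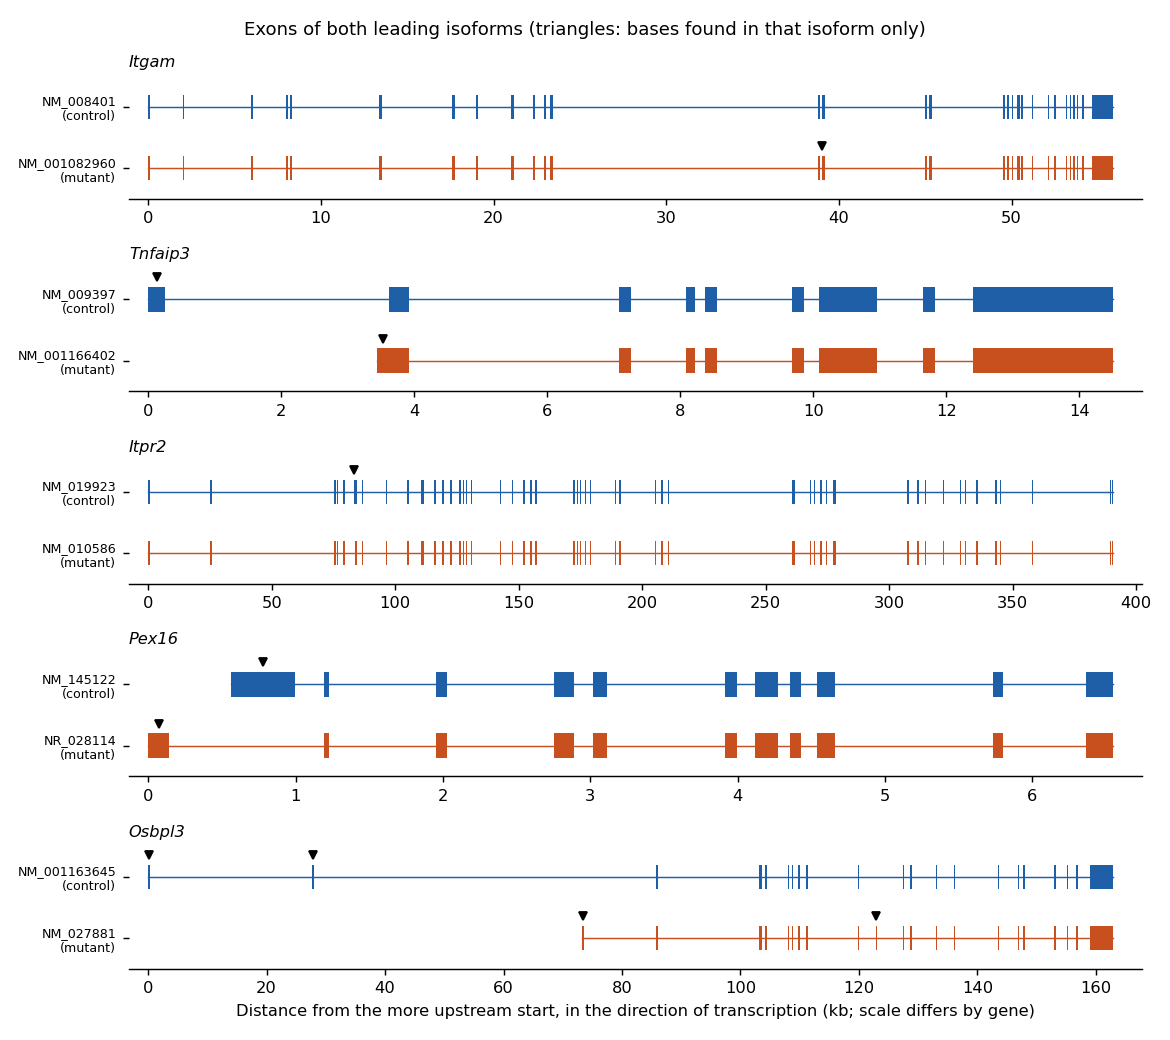
Exons (boxes) of both leading isoforms of 5 genes along the gene, in kilobases from the more upstream start, with the isoform highest in controls above the isoform highest in mutants. Triangles mark stretches found in that isoform only, from 3 bases in Itgam to 437 bases of NM_145122 in Pex16.

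The 200 bases before each of these 6 starts differed in base composition. Before the Tnfaip3 start of NM_009397 they were 66.0% G or C with 22 CpG, and before that of NM_001166402 46.5% with 5 CpG. The Osbpl3 windows were 64.5% with 12 CpG (NM_001163645) and 46.0% with 4 CpG (NM_027881), while those of Pex16 were 51.0% (NM_145122) and 45.5% (NR_028114) with 10 CpG each. Over 32851 promoters of the RefSeq table of the GRCm38.p6 build, the median was 53% with 5 CpG. The windows of NM_009397 and NM_001163645 overlap an exon of another GENCODE transcript of the gene, and the other windows do not. Both strands of the same 200 bases were searched for the core of the TATA box (TATAAA) and for the letters of another common promoter element, the CCAAT box. They were also searched for a form of the site bound by the NF-kB transcription factors, in which GGG is followed, after 2 bases of any kind, by the letters TTTCC. Other forms of that site were not searched for. The form with these letters was found once, before the start of NM_009397 (on the opposite strand, 12 to 3 bases before it), and in 1.18% of the RefSeq promoters. The last 30 bases before both Tnfaip3 starts are shown for that match, which stands in capitals as it reads on the gene's strand.
Tnfaip3 NM_009397, chr10:18735217-18735246, − strand: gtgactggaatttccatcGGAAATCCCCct
Tnfaip3 NM_001166402, chr10:18731770-18731799, − strand: tttaaaagtgatgtaacttagaacagtcca
CCAAT was found before the Osbpl3 start of NM_001163645 (on the opposite strand, 76 to 72 bases before it) and in 29.3% of RefSeq promoters. It was also found before the Pex16 start of NR_028114 (on the gene's strand, 31 to 27 bases before it). TATAAA was found before that Pex16 start as well, on the opposite strand and 100 to 95 bases before it (9.96% of RefSeq promoters). A match describes the letters and was not tested as a site.

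The first question was how common such switches are in these libraries. By genotype the count was 6 of 2760, or 0.217%. The rule also asks for the same count when the 6 libraries are divided in the other 9 ways into 3 against 3. Those counts ran from 5 to 13 with a median of 9, and 8 of the 9 were higher than the count by genotype. The fewest (5) came with controls 2 and 3 and mutant 1 on one side, and the most (13) with control 3 and mutants 1 and 2 on one side. In 2071 of the 2760 genes (75.0%) the same isoform was highest in all 6 libraries, and in 689 (24.96%) it was not. The values that follow chose the genes, so they are given as a description, and nothing is read from the share called.

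**Figure D2:**
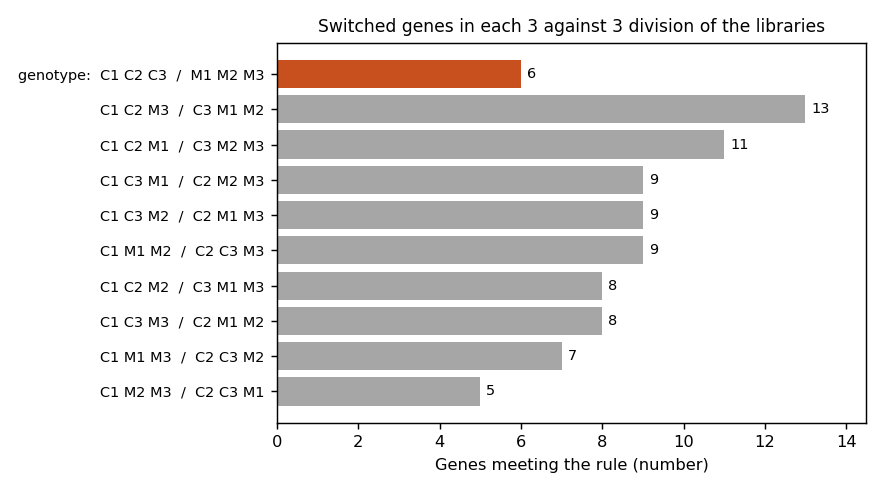
Number of genes in which one isoform is highest in all 3 libraries of one side and another single isoform in all 3 of the other, for each division of the 6 libraries (C, control; M, mutant) into 3 against 3. The genotype division (coloured bar) gives 6 genes and the other 9 give between 5 and 13.

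Itgam, the CD11b subunit of an adhesion receptor of macrophages, neutrophils and other myeloid cells, had the widest lead. Controls 1 to 3 had 3.05, 2.92 and 2.01 FPKM of NM_008401, where mutants 1 to 3 had 0.000197, 1.08 and 1.07 FPKM. Of NM_001082960, the isoform with the 3 additional bases, the controls had 0.793, 1.85 and 8.28e-05 FPKM and the mutants 4.003, 1.99 and 2.97 FPKM. Almost all of the gene was assigned to 1 isoform in control 3 and to the other in mutant 1, whereas both isoforms were present in the other 4 libraries. The share of NM_001082960 was 20.6, 38.7 and 0.00411% in controls and 99.995, 64.7 and 73.6% in mutants. The groups did not overlap, which the rule fixes for any gene of 2 isoforms. Its smallest lead was in control 2, where NM_008401 was 1.58 times the other. The leading isoform rested on 193 to 358 estimated fragments in controls and 212 to 381 in mutants, spread over the whole transcript and not over the 3 bases. All 8 markers of macrophages and mast cells were found, 7 of them at 1 FPKM or more in every library and 0 at 0. Their summed level was 163 to 192 FPKM in controls and 150 to 225 FPKM in mutants, and most of it was the lysozyme gene Lyz2 (125, 137 and 151 FPKM in the controls, against 99.1, 85.1 and 173 FPKM in the mutants). In contrast, the median of the list, in log2 against the controls, was -0.20, 0.10 and 0.15 in controls and 0.30, 0.19 and 0.27 in mutants, so it did not overlap. Nor did the mast cell protease genes Mcpt1 (3.82 to 6.39 FPKM in controls, 11.5 to 24.8 FPKM in mutants) and Mcpt2 (1.75 to 3.14 and 3.83 to 10.2 FPKM). Lyz2 and the other genes of the list overlapped between the groups. Over all 13596 genes tested, the groups did not overlap in 7.75%. Csf1r lay at 16.5 to 18.2 FPKM in controls and 15.5 to 17.9 FPKM in mutants. In the same order Emr1 lay at 4.06 to 6.00 and 4.20 to 6.05 FPKM, and Cd68 at 5.44 to 7.60 and 5.63 to 8.32 FPKM. Kit lay at 2.71 to 3.31 and 2.84 to 4.16 FPKM, and Cpa3 at 0.276 to 0.812 and 0.768 to 2.23 FPKM. The part of macrophages and mast cells in the Itgam values was not tested.

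Tnfaip3 encodes A20, a ubiquitin-editing enzyme that NF-kB induces and that in turn restrains NF-kB. The controls had 3.92, 4.18 and 4.94 FPKM of NM_009397, with the upstream start, and the mutants 3.34, 2.98 and 1.70 FPKM. Of NM_001166402, with the intronic start, they had 3.10, 3.30 and 2.32 FPKM, against 3.86, 6.09 and 7.60 FPKM in the mutants. For both isoforms the groups did not overlap, with the upstream isoform lower and the intronic one higher in every mutant. The share of NM_001166402 was 44.2, 44.1 and 31.9% in controls and 53.6, 67.1 and 81.7% in mutants. Mutant 1 lay nearest to the controls, and mutants 2 and 3, the 2 libraries that expressed Xist, lay farthest. From mutant 1 to mutant 3 the Nkx2-2 total (1.10, 0.736 and 0.221 FPKM) and the summed exocrine pancreas markers (9457, 5828 and 2160 FPKM) fell. Control 3, with the lowest share of NM_001166402, also had the lowest Nkx2-2 total and pancreas sum of the controls. The parts of sex, of Nkx2-2 level and of marker levels were not tested. The smallest lead was 1.16 times, in mutant 1. Since the reading frame is the same, only the untranslated leader differs between these isoforms.

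Itpr2, the type 2 receptor for inositol trisphosphate, releases calcium from the endoplasmic reticulum. NM_019923, with the 99-base exon, was measured at 3.45, 2.77 and 2.35 FPKM in the controls, against 1.91, 2.56 and 1.95 FPKM in the mutants. NM_010586, without it, was measured at 1.69, 0.883 and 1.44 FPKM in the controls, against 2.97, 3.70 and 2.18 FPKM in the mutants. The isoform without the exon was higher in every mutant than in any control, while the isoform with it overlapped between the groups (2.56 FPKM in mutant 2, 2.35 FPKM in control 3). The share of NM_010586 was 32.8, 24.2 and 38.0% in controls and 60.8, 59.1 and 52.8% in mutants. The lead was smallest in mutant 3, at 1.12 times. In length the exon is a whole number of codons, as 99 is a multiple of 3.

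Pex16 acts in the formation of peroxisomes, where it serves in placing membrane proteins. The coding isoform NM_145122 reached 32.8, 25.4 and 29.7 FPKM in the controls, against 26.8, 27.1 and 25.5 FPKM in the mutants. The non-coding NR_028114 reached 22.95, 21.5 and 26.7 FPKM in the controls, against 29.0, 29.2 and 30.8 FPKM in the mutants. The coding isoform overlapped between the groups, and the non-coding one did not. Its share was 41.2, 45.9 and 47.3% in controls and 52.0, 51.9 and 54.7% in mutants, close to an even division in all 6 libraries. The isoforms are 1462 and 1171 bases long, so FPKM, which divides by length, and fragments order them differently. Estimated fragments of NM_145122 exceeded those of NR_028114 in every library (669 against 620 in mutant 3, the closest), so by fragments no switch occurred.

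Osbpl3 belongs to the oxysterol-binding protein family, whose members bind and move lipids at membrane contact sites. The controls had 10.6, 8.38 and 5.40 FPKM of NM_001163645, and the mutants 6.27, 10.996 and 7.58 FPKM. The controls had 9.49, 6.93 and 5.32 FPKM of NM_027881, and the mutants 9.22, 13.1 and 8.64 FPKM. Both isoforms overlapped between the groups, and both were highest in control 1 among the controls and in mutant 2 among the mutants. The share of NM_027881, the shorter isoform, was 47.2, 45.3 and 49.6% in controls and 59.5, 54.4 and 53.2% in mutants. In control 3 the leading isoform was 1.02 times the other.

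Gm14308 had 8 rows of 1628 bases each, all of accession NM_001099349, at 8 loci of chromosome 2. The copy at 176181277 to 176194747 had 0.541, 0.776 and 0.586 FPKM in the controls, against 0.588, 0.502 and 0.575 FPKM in the mutants. The copy at 175964488 to 175977956 had 0.537, 0.699 and 0.543 FPKM in the controls, against 0.628, 0.516 and 0.656 FPKM in the mutants. The 2 copies lay within 1.01 times of each other in control 1 and rested on 16.5 to 24.0 estimated fragments per library. Fragments of near-identical copies can be divided between them by the authors' counting, so these values are uncertain. Among the 2760 genes, 41 (1.49%) likewise had copies of 1 accession as their 2 main rows.

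**Figure D3:**
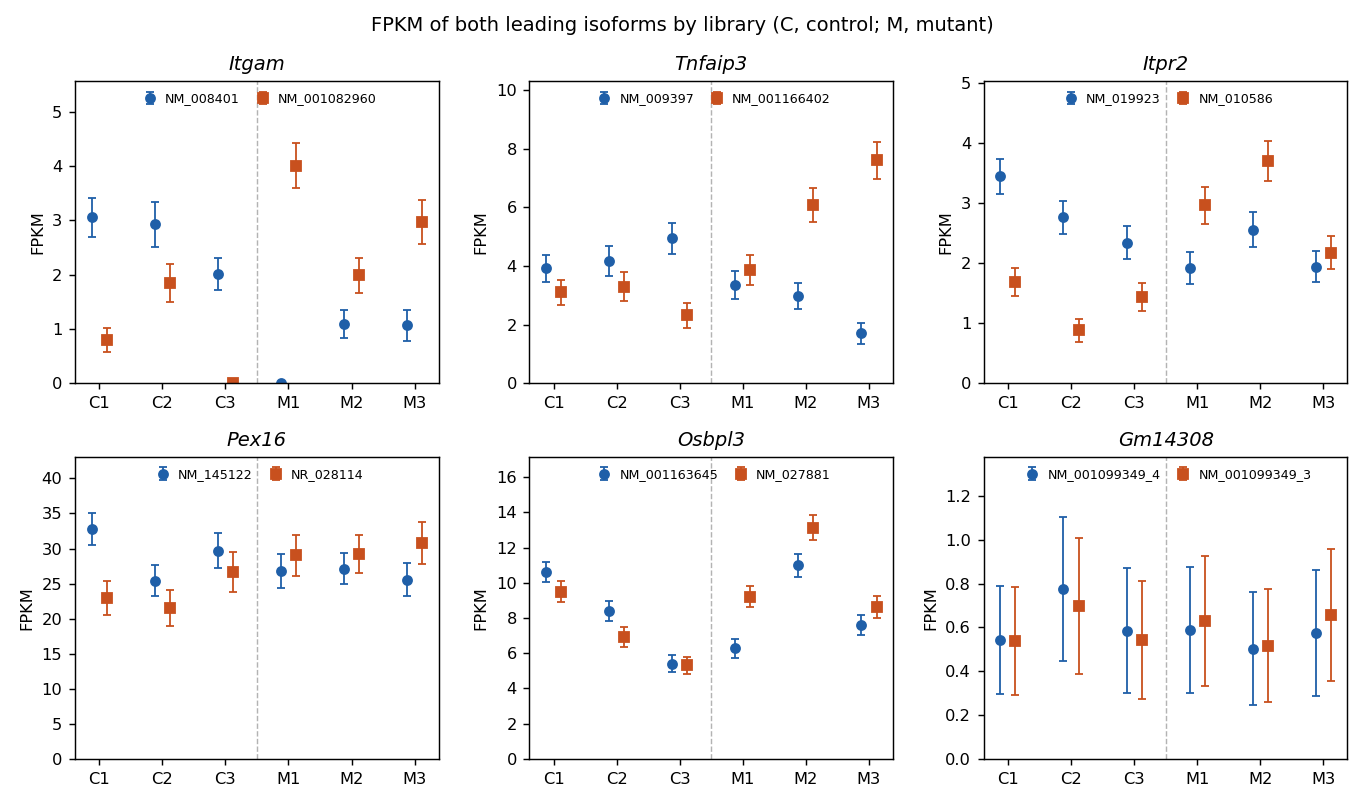
FPKM of both leading isoforms of each gene in every library (C, control; M, mutant), with the interval that Cufflinks gives as bars; circles are the isoform highest in controls and squares the isoform highest in mutants. Itgam shows intervals apart in all 6 libraries, and Gm14308 in 0 of 6.

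Cufflinks gives an interval for each isoform, and the intervals of each pair were compared within a library. The intervals of the pair were apart in 18 of 36 combinations of gene and library, 9 of 18 in controls and 9 of 18 in mutants. They were apart in 6 of 6 libraries for Itgam, 5 for Itpr2, 3 for Tnfaip3, 3 for Osbpl3, 1 for Pex16 and 0 for Gm14308. Itgam was thus the only gene of the 6 whose order was outside these intervals everywhere. Its isoforms differ by only 3 bases, so this does not make it the best resolved pair. How fully the intervals hold the uncertainty of dividing shared fragments was not tested. The smallest leads inside the rule, on the log2 scale with 0.1 FPKM added, were 0.0096 for Gm14308, 0.02 for Osbpl3 and 0.11 for Pex16. Just outside, 92 genes met the rule in 5 of 6 libraries. The nearest were the histone gene Hist2h2aa1, whose other copy was highest in control 1 (19.53 against 19.50 FPKM), Myef2, which failed in control 3 (2.473 against 2.469 FPKM), and Prpsap2, which failed in mutant 3 (3.209 against 3.199 FPKM). Several genes inside and outside the rule were thus separated by differences smaller than the interval of a single value.

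The change in isoform use was measured for all 2760 genes as the log2 ratio of the 2 main isoforms, each with 0.5 FPKM added, and compared between the groups with limma, two-sided. Of 2760 genes 0 passed an adjusted p of 0.05 (0%), and 112 had an unadjusted p under 0.05 (4.06%). Of the 6 genes 0 passed, with a limma adjusted p of 0.999 each; the same values chose these genes, so their p-values support nothing. The ratio of mutant-leading to control-leading isoform of Itgam went from a mean of -1.44 in controls to 1.66 in mutants, a log2 change of 3.10 ± 0.80 (standard error, 3 libraries a group). For Tnfaip3 the log2 ratio was -0.51 in controls and 0.99 in mutants, a change of 1.51 ± 0.49. For Itpr2 it was -0.88 and 0.37, a change of 1.252 ± 0.277. The other 3 lay near an even ratio in both groups, with changes of 0.46 ± 0.22 for Pex16, 0.46 ± 0.22 for Osbpl3 and 0.11 ± 0.20 for Gm14308. The median size of the change was 0.86 over the 6 genes and 0.28 over all 2760. Because the same contrast chose the genes, the larger size among the 6 is a property of the choice.

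**Figure D4:**
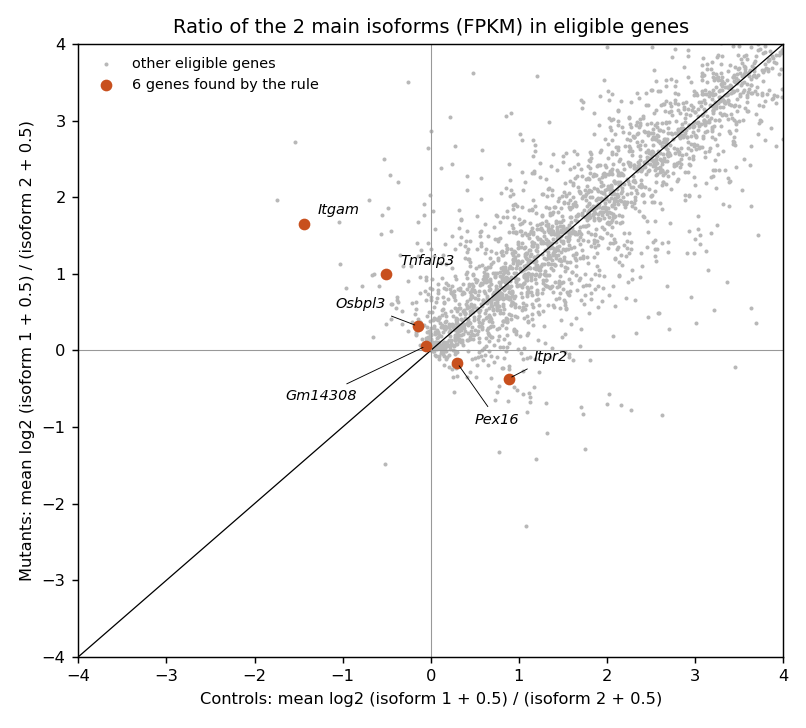
Mean log2 ratio of the 2 main isoforms (FPKM + 0.5) in controls (horizontal) and mutants (vertical) for eligible genes, isoform 1 being the one of higher mean FPKM over all libraries; the diagonal marks an equal ratio, and 435 genes lie beyond the axes, which end at 4. Itgam, Tnfaip3 and Itpr2 lie off the diagonal and Pex16, Osbpl3 and Gm14308 near the origin; for Itpr2 and Pex16 isoform 1 is the control-leading one, so they lie to the right of 0.

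Gene totals of the 5 genes overlapped between the groups. The controls had a Tnfaip3 total of 7.25 ± 0.228 FPKM and the mutants 8.53 ± 1.15 FPKM (SD, n = 3 each). In the same order Itpr2 had 4.19 ± 0.823 and 5.09 ± 1.09 FPKM, and Osbpl3 15.4 ± 4.69 and 18.6 ± 4.79 FPKM. Pex16 had 53.0 ± 5.28 and 56.2 ± 0.300 FPKM, and Itgam 3.54 ± 1.40 and 3.70 ± 0.548 FPKM. The limma log2 changes of these totals were 0.21 ± 0.13 for Tnfaip3, 0.25 ± 0.19 for Itpr2, 0.28 ± 0.26 for Osbpl3, 0.09 ± 0.11 for Pex16 and 0.11 ± 0.27 for Itgam, with an adjusted p of 0.999 each. Single libraries set the size of these changes. Without control 3, the change of Itgam was -0.20, so its direction rests on that library. Leaving out each library in turn gave 0.055 (without control 3) to 0.49 (without control 1) for Osbpl3, 0.10 (without mutant 2) to 0.39 (without control 1) for Itpr2, 0.0022 (without control 2) to 0.13 (without control 3) for Pex16 and 0.15 (without mutant 3) to 0.32 (without mutant 1) for Tnfaip3. Of 13596 genes tested in the same way, 3 passed (0.0221%), 1 higher (0.00736%) and 2 lower (0.0147%). With the replicate number as a block 22 passed, 9 of them higher, and without a block 68 passed when mutant 3 was left out, 56 of them higher, and 8 when mutant 1 was left out. The authors' deposited table gives mean normalized counts of 676 in controls and 810 in mutants for Tnfaip3, 775 and 981 for Itpr2, 2313 and 2850 for Osbpl3, 1382 and 1453 for Pex16, and 353 and 376 for Itgam. The log2 fold changes in the authors' deposited table are 0.26, 0.34, 0.30, 0.07 and 0.09 in the same order, each with an adjusted p of 1. For Tnfaip3 and Itpr2, the differences between isoforms were therefore measured at totals that were not called in either source.

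The 6 genes were compared with all 2760 for what the rule did not name. Their 2 main isoforms were close in level. The log2 ratio, with 0.5 FPKM added to each isoform, was averaged over all libraries for each gene. The median of this mean was 0.10, against 1.83 over all eligible genes, and it was under 1 in 6 of 6 (100%) against 802 of 2760 (29.1%). A small ratio is what the rule tends to pick. The median FPKM of the pair was 6.26 in the 6 genes and 11.1 in all. The main isoforms shared a start site, as the files number them, in 2 of 6 (33.3%), namely Itgam and Itpr2, against 1626 of 2760 (58.9%). Their lengths differed by at most 3 bases in 2 of 6 (33.3%), Itgam and Gm14308, against 178 (6.45%). Of the 6 genes 5 (83.3%) had only 2 isoforms, against 1766 (64.0%). With 6 genes, these shares are descriptions.

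Factors that choose splice sites and process transcript ends were examined from lists of 58 splicing genes and 19 genes of 3-prime end processing. Of 73 tested, 0 rose and 0 fell by limma, and 0 had an unadjusted p under 0.05, beside 3.43% of all 13596 genes. Their log2 changes ran from -0.24 to 0.19 with a median of -0.06, where the median of all genes tested was -0.02. The groups did not overlap in 1 of the 73, against 7.75% of all genes. That gene was Sf1, which recognises the branch point of introns, at 33.5, 36.7 and 33.5 FPKM in the controls, against 32.8, 29.9 and 32.1 FPKM in the mutants. The 4 factors of highest mean level overlapped between the groups. Hnrnpa2b1, an RNA-binding protein of nascent transcripts, lay at 307, 344 and 291 FPKM in the controls, against 288, 283 and 324 FPKM in the mutants. Hnrnpf, which binds G-rich stretches near splice sites, lay at 170, 193 and 166 FPKM in the controls, against 171, 163 and 172 FPKM in the mutants. Srsf2, a serine- and arginine-rich factor of exon inclusion, lay at 132, 129 and 127 FPKM in the controls, against 138, 109 and 125 FPKM in the mutants. Hnrnpk, which binds C-rich stretches, lay at 104, 119 and 115 FPKM in the controls, against 116, 103 and 108 FPKM in the mutants. No member of either list was called, and totals do not show how active such a factor was.

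Markers of several cell types differed in level between libraries. Those of the exocrine pancreas summed to 9731 to 15845 FPKM in controls and 2160 to 9457 FPKM in mutants, those of Brunner glands and stomach to 2697 to 8608 and 141 to 4805 FPKM, and those of tuft cells to 29.9 to 39.4 and 35.6 to 150 FPKM. All 8 pancreas markers lay at 1 FPKM or more in every library, 3 of 7 Brunner gland and stomach markers did, and none of these lists had a marker at 0. The pancreas sums did not overlap between the groups and were lower in every mutant. The sums of the 9 enteroendocrine markers did not overlap either, with 507 to 713 FPKM in controls against 801 to 1577 FPKM in mutants. Of all 13596 single genes tested, 7.75% did not overlap. The median of the enteroendocrine markers, in log2 against the controls, lay the other way from their sum. It was 0.23, 0.16 and -0.36 in controls and -1.10, -1.40 and -1.88 in mutants. The sum of the enterocyte and duodenum markers was lowest in the libraries numbered 3, at 13473 FPKM in control 3 and 15759 FPKM in mutant 3. Their median, in log2 against the controls, was also lowest there, at -0.30 and -0.20. Not every marker followed, as Cdx2 was highest in these libraries, at 80.9 and 76.7 FPKM. The summed smooth muscle markers were highest in the same libraries, at 1241 FPKM in control 3 and 1020 FPKM in mutant 3. So were those of T and B cells, at 1756 and 1637 FPKM. Cell types can differ in the isoforms they use. The part of these marker levels in the isoform shares of Tnfaip3, Itpr2, Pex16 and Osbpl3 was not tested.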

How the data were processed

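For each library the authors deposited FPKM with an interval, per gene and per isoform, together with isoform length in bases and a coverage signal, made with Cufflinks per the file headers. TopHat, Cufflinks, DESeq, CASAVA 1.8.2 and the mm9 build are named in the submitters' processing notes. Their options, the strand setting and the annotation are not given in the sources used here. The authors also deposited a table with mean normalized counts per group (a signal), log2 fold changes and adjusted p-values, made with DESeq per its name, from which the members' rows were copied. Its table holds no counts per library, so no count test was run.

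Isoform rows were joined by gene name. Isoforms of a gene summed to its deposited FPKM in 100% of values over 22987 genes. Depth was read from the Cufflinks intervals of transcripts with 1 fragment, 581 to 633 per library, of which 99.8 to 100% lay within 2% of a line. Estimated fragments follow from FPKM, this depth and a length shortened by 210 bases. Exons came from GENCODE vM1 transcripts with ends near those of the deposited isoform. Exons outside the deposited ends were dropped, and the outer exons were set to those ends. The length then had to be the same, as it was for all 10 isoforms. Sequences came from the mm9 genome. Limma 3.58.1 in R 4.3.3, with a robust and intensity-trended prior (statmod 1.5.0), was run on log2 ratios of 2 isoforms and on log2(FPKM + 0.5) of genes with at least 0.5 FPKM in at least 3 libraries, unpaired, with Benjamini-Hochberg adjustment; such changes are understated for low values. The pipeline was tested on simulated data. Python 3.11.15, pandas 2.3.3, numpy 2.4.6, matplotlib 3.10.9 and samtools 1.23.1 were used. Every gene found by the rule is named, ordered by its smallest lead over the 6 libraries, with the 3 nearest outside it, and the 4 factors of highest mean; Sf1 was named after its values were seen. The genes and lists were chosen with earlier results of these data known.

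Samples are numbered 1 to 3 in each group without a stated meaning of the number. Deviations from group means correlated at 0.26, 0.25 and 0.58 between same-numbered libraries in gene totals, over the limit of 0.1 taken to show pairing, although control 1 with mutant 2 (0.30) and control 2 with mutant 1 (0.19) did as well, so the match of 1 and 2 is not shown; for isoform ratios the same-numbered values were 0.04, 0.07 and 0.10. The alternatives were other minimum lengths, FPKM minima, leads and joins, other pseudocounts and scalings, a replicate block and leaving out each library.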

Additional observations from a re-analysis of the deposited data

How the results depend on the processing

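The count of 6 switched genes depended on the level and on the lead asked for. It was 11 with a minimum of 0.5 FPKM, which added Cd163, Gm14440, Mtap2, Nckap5 and Rfx3, and 3 with a minimum of 5 FPKM, which kept Tnfaip3, Pex16 and Osbpl3. With the highest isoform at least 25% above the next it was 1 (Itgam), and at least 2 times the next it was 0. It was also 1 (Itgam) where the Cufflinks intervals had to be apart in every library, a choice made after seeing the data. Leaving out each library gave 14 to 27 genes, the 6 among them each time, because a rule over fewer libraries is easier to meet. No minimum length, a minimum of 1000 bases and joining by gene identifier and chromosome each gave 6 genes. Ranking by FPKM times length gave 7, without Pex16 and with 1810032O08Rik and Myef2. Asking for the status OK, or for overlapping loci (added after seeing the data), gave 5, without Gm14308. Calls on the isoform ratio were 2 (Cntfr and Rfx3) with no minimum on summed FPKM, where 4157 genes were tested, and 0 to 3 on leaving out each library, with 3 (Glmn, Isg20 and Zfp182) without mutant 1 and 1 (Pla2g4c) without mutant 3; the cause was not tested. With the replicate block they were 0 (107 at an unadjusted p under 0.05). Gene totals had 3 calls, 1 with no filter on low values, 22 with the replicate block, and 2 to 68 on leaving out each library, with 8 without mutant 1 and 68 without mutant 3. The block changed no call among the 6 genes or the splicing and 3-prime end factors, where 0 passed in all 11 alternatives. Log2 changes of totals that reversed were those of Itgam (-0.20 without control 3, up to 0.34 without another library), Hnrnpf (0.0068 without control 2, down to -0.10) and Srsf2 (0.020 without mutant 2, down to -0.15). The other members' totals kept their direction over the ranges given above. The isoform ratios kept their direction in all 69 alternatives, an outcome that the rule fixes by asking for opposite orders in controls and mutants. Intervals of the 2 isoforms overlapped in 18 of 36 gene and library combinations, where these intervals did not resolve their order.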
